A study of Mus musculus with 4 samples.

Results

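The genes described here build and maintain the motile cilium. They were taken from the arrays by name: every gene symbol that starts with Dnah, Dnaic, Dnali, Tekt or Rsph, or with Ift and a digit, together with Foxj1, Rfx2, Rfx3, Spag6, Spag16 and Spag17. This gave 47 genes, measured by 98 probes, of 27374 gene names on 41174 probes. They fall into 31 axoneme genes, 13 intraflagellar transport (IFT) genes and 3 transcription factors. The array files use the older symbol Dnahc for the axonemal dynein heavy chains now called Dnah, and these names are kept.

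A motile cilium is a beating hair on the surface of airway ciliated cells. Its shaft, the axoneme, is a ring of microtubule doublets around a central pair, moved by outer and inner dynein arms and timed by radial spokes and the central apparatus. Intraflagellar transport carries building material along the shaft and is needed by primary (non-motile) cilia as well, whereas dynein arms, spokes and tektins belong to motile cilia and sperm tails. Foxj1 is the main transcription factor of motile ciliogenesis, and RFX factors bind the X-box in promoters of cilium genes. Alveolar type II cells, which make surfactant, do not carry motile cilia.

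RNA came from alveolar type II cells sorted by flow cytometry from lungs of mice labelled female. The 4 groups were WT mice without tumor, WT mice 2 weeks after Lewis lung carcinoma (LLC, a mouse lung cancer line) was placed under the skin, Tlr3-/- mice without tumor, and Tlr3-/- mice 2 weeks after the same inoculation. Tlr3 is an endosomal sensor of double-stranded RNA. The design asks what a tumor elsewhere in the body does to these cells and whether Tlr3 matters for it. Each group was 1 array, the sort gate and the number of mice behind an array are not given in the sources used here, and no difference therefore has a replicate check or a p-value.

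A level is the log2 processed signal minus the array's own 75th percentile, so 0 is the signal of a fairly bright probe. A difference is the level on one array minus that on another, and 1 on this scale is 2-fold. Values of a gene are always listed with the WT pair first and the Tlr3-deficient pair second, and within each pair the array without tumor comes first. The 75th percentile of intensity ran from 524 to 852 over the arrays, and 60.5% to 65.0% of probes were well above background. The SD of the difference between replicate spots of a probe was 0.111 for the tumor comparison in Tlr3-deficient mice and 0.113 for the genotype comparison with tumor. It was 0.287 and 0.293 in the comparisons that use the WT array without tumor, where the spread lay in columns 1 to 51 of the slide (SD 0.341 for tumor in WT, against 0.118 in columns 52 to 85). The scanner's error model put 0.20 to 0.32 on a difference of any member measured on all 4 arrays. These errors cover spots, not mice.

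The 3 slides cannot be told apart from the groups, since only the WT tumor array and the array labelled Tlr3-deficient without tumor share a slide. That last array also goes against its label: 4 of 4 Y-linked genes (Uty, Kdm5d, Ddx3y and Eif2s3y) had signal well above background there, and 0 of 4 on each of the others. It is written below as "the array labelled Tlr3-deficient without tumor". The comparisons that do not use it, tumor in WT and genotype with tumor, are given beside those that do. Since 4 comparisons are made from 4 arrays, they are not independent of each other.

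Transcripts of the motile cilium were measurable in all 4 sorted preparations. Of the 47 genes, 42 were well above background on every array, 89.4% against 57.2% of all gene names. All 13 IFT genes and all 3 transcription factors were among them, with 26 of the 31 axoneme genes. The other 5 axoneme genes were Dnahc14, Dnaic2 (an outer arm intermediate chain), Rsph6a and Tekt3, which were well above background on no array, and Dnahc17, which was so on the array labelled Tlr3-deficient without tumor alone. Rsph6a, Tekt3 and Dnahc17 are best known from sperm tails.

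**Figure D1:**
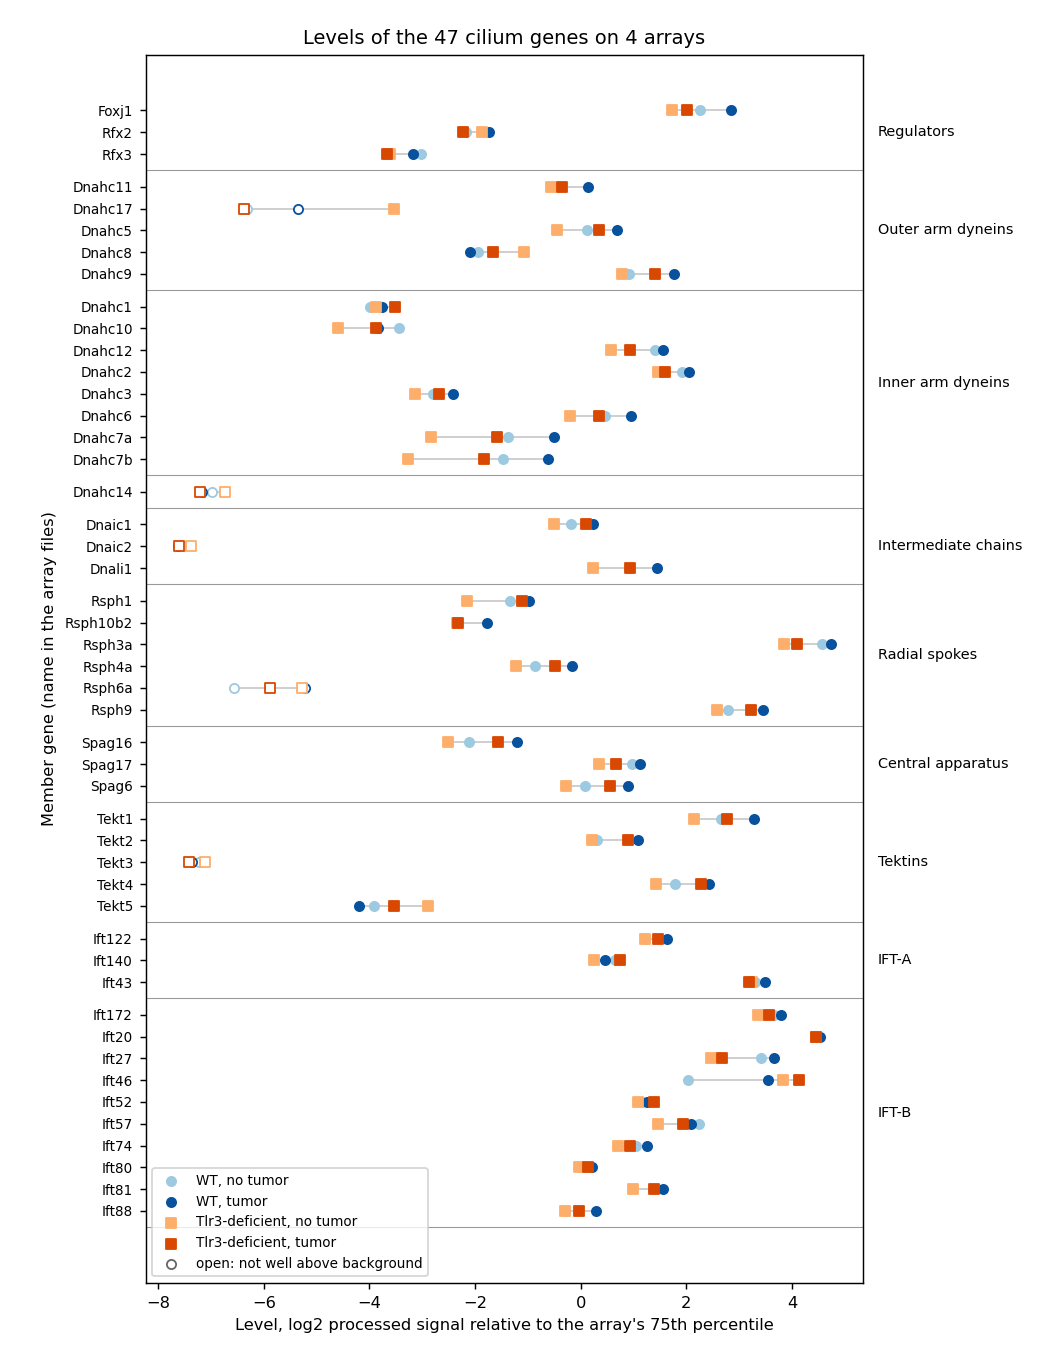
Level of each of the 47 genes (rows, grouped by role) on each of the 4 arrays (log2 processed signal relative to the array's 75th percentile, horizontal axis). Filled points are well above background and open points are not. In most axoneme rows the dark blue point (WT, tumor) lies farthest right and the pale orange one (Tlr3-deficient, no tumor) farthest left.

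The arrays kept one order across most axoneme genes. Of the 26 measured on every array, 22 (84.6%) were highest on the WT tumor array, where 22.0% of all 15647 genes measured on every array were highest. Lowest on the array labelled Tlr3-deficient without tumor were 22 (84.6%), against 29.5% of all such genes. Of the IFT genes 9 of 13 were highest on the WT tumor array and 9 of 13 lowest on the array labelled Tlr3-deficient without tumor. In RNA from a sorted population, fewer cells of a type and less RNA per cell cannot be told apart.

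Foxj1, the factor that switches on motile ciliogenesis, read 2.26, 2.85, 1.73 and 2.01. It was 0.58 ± 0.20 (scanner error) higher with tumor in WT and 0.27 ± 0.20 higher in Tlr3-deficient, and 0.53 and 0.84 lower in Tlr3-deficient than in WT without and with tumor, none of them 2-fold. Both WT arrays were above both Tlr3-deficient arrays. Rfx2, a partner of Foxj1 on cilium promoters, read -2.18, -1.74, -1.87 and -2.23, and Rfx3, which acts in primary and motile cilia alike, read -3.03, -3.18, -3.61 and -3.67. Neither shared the full order of Foxj1: the tumor differences of Rfx2 were 0.43 and -0.37, and those of Rfx3 were -0.14 and -0.06. The genotype differences of Rfx3 without and with tumor were -0.57 and -0.49, and those of Rfx2 were 0.31 and -0.49. For the Rfx3 probe used, both WT arrays were thus above both Tlr3-deficient arrays, as for Foxj1.

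With tumor in WT mice, axoneme genes were higher by a median of 0.54 (1.45-fold) and IFT genes by 0.18 (1.14-fold), while the median of all 17812 genes tested was 0. Of 26 axoneme genes 23 were above 0 (49.6% of all genes), and 19 lay above the IFT median. At 2-fold there was little to count: 1 of 42 members was called higher, in the IFT class, where 5.58% of all genes were called higher and 1.57% lower. At a smaller step of 0.5 log2, set after values were seen, 15 of 26 axoneme genes (57.7%) and 2 of 13 IFT genes (15.4%) were higher, against 18.6% of all genes. Among all genes 78.1% of the 2-fold calls were higher, a share that fell to 63.7% when arrays were centred on the median and 66.5% with quantile normalization.

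Outer arm dyneins give the cilium most of its beat frequency. Dnahc5, the heavy chain most often altered in primary ciliary dyskinesia, read 0.11, 0.69, -0.44 and 0.34. Dnahc9, its partner in the far part of airway cilia, read 0.91, 1.77, 0.78 and 1.41, and Dnahc11, the heavy chain of the near part, read -0.42, 0.14, -0.57 and -0.36. All 3 were highest on the WT tumor array and lowest on the array labelled Tlr3-deficient without tumor, with tumor differences of 0.56 to 0.86 in WT and 0.21 to 0.78 in Tlr3-deficient. Their intermediate chain Dnaic1 read -0.18, 0.24, -0.50 and 0.10, with the same highest and lowest arrays.

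Inner arm dyneins shape the bend of the cilium. Dnahc7a read -1.38, -0.50, -2.83 and -1.59, and Dnahc7b read -1.48, -0.62, -3.27 and -1.83. These were the widest ranges of any axoneme gene measured on all arrays. Dnahc12 (1.41, 1.56, 0.57, 0.94), Dnahc6 (0.46, 0.96, -0.21, 0.34), Dnahc2 (1.91, 2.05, 1.47, 1.59) and Dnahc3 (-2.79, -2.42, -3.14, -2.68) had the same highest and lowest arrays with smaller steps. The other Dnahc12 probe shared these arrays, with tumor differences of 0.76 and 0.71 against 0.16 and 0.38 for the probe used. The light intermediate chain Dnali1 read 0.91, 1.44, 0.24 and 0.94 and shared both as well. Dnahc10 (-3.44, -3.83, -4.59, -3.88) was lowest on the array labelled Tlr3-deficient without tumor but highest on the WT array without tumor, and Dnahc1 (-3.99, -3.76, -3.88, -3.52) was highest on the Tlr3-deficient tumor array.

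Dnahc7a and Dnahc7b are closely related dynein genes on the same mouse chromosome, and their probes are shown because these genes had the widest ranges. Coordinates are mm9 per the array annotation, Dnahc7a at chr1:53468407-53468466 on the minus strand and Dnahc7b at chr1:46415082-46415140 on the plus strand. Capitals mark the 14 bases that end the first probe and begin the second.
Dnahc7a: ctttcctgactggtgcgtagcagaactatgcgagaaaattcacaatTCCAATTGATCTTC
Dnahc7b: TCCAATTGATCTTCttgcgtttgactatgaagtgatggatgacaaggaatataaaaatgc
Whether a transcript of one gene also binds the probe of the other was not tested. Both genes are counted in the numbers of members given here. Another Dnahc7a probe measured on all arrays read -2.28, -1.76, -2.87 and -2.71. It had the same order of arrays with smaller differences, 0.52 and 0.16 with tumor.

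Radial spokes link the doublets to the central pair. The spoke head genes Rsph9 (2.78, 3.46, 2.58, 3.23) and Rsph4a (-0.86, -0.17, -1.23, -0.49) were 0.68 and 0.69 higher with tumor in WT and 0.65 and 0.73 higher in Tlr3-deficient. Rsph1, also of the spoke head, read -1.33, -0.98, -2.16 and -1.11, and stood lowest on the array labelled Tlr3-deficient without tumor with the other arrays close together. The stalk gene Rsph3a read 4.57, 4.73, 3.85 and 4.09 on the probe used, separated by genotype more than by tumor. Another Rsph3a probe measured on all arrays was separated likewise, by -0.22 and 0.39 with tumor and -1.42 and -0.82 between genotypes. A dimmer Rsph3a probe, also measured on all arrays, was not. It differed by 1.05 and 0.44 with tumor and by 0.15 and -0.45 between genotypes. Rsph10b2 (-2.36, -1.78, -2.34, -2.32) was, on the probe used, higher on the WT tumor array than on the other 3, which lay close together. Its other probe, also measured on all arrays, read -2.36, -1.94, -2.64 and -2.28.

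The central apparatus gene Spag16 read -2.12, -1.20, -2.51 and -1.56, and Spag6 read 0.08, 0.89, -0.28 and 0.56. Their tumor differences were alike in the 2 genotypes, 0.92 and 0.94 for Spag16 and 0.81 and 0.85 for Spag6. Spag17, a scaffold of the central pair, read 0.97, 1.13, 0.34 and 0.66 and differed by 0.16 and 0.33. Its other probe, also measured on all arrays, differed by 0.82 and 0.37. The Spag6 probe carries the gene now called Spag6l.

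Tektins are filament proteins inside the doublets. Tekt1 read 2.65, 3.28, 2.15 and 2.77, Tekt2 read 0.31, 1.09, 0.22 and 0.89, and Tekt4 read 1.78, 2.43, 1.42 and 2.28. Both tumor arrays were above both arrays without tumor for all 3, and the tumor differences within a genotype were 0.62 to 0.85. Tekt5, known from the sperm tail, ran the other way with -3.91, -4.20, -2.90 and -3.53.

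Tekt5 was joined by Dnahc8, the outer arm heavy chain of sperm, which read -1.95, -2.10, -1.07 and -1.66. These were the only 2 of 26 axoneme genes below 0 in both tumor comparisons, -0.29 and -0.63 for Tekt5 and -0.15 and -0.59 for Dnahc8. Dnahc17, another sperm outer arm chain, was dim on 3 arrays (-6.31, -5.35 and -6.37) and read -3.54 on the array labelled Tlr3-deficient without tumor. It was there at least 3.09-fold higher than in WT without tumor. The values of Dnahc8 and Dnahc17 each come from 1 of 3 probes. The other Dnahc8 probes were well above background on no array. The other Dnahc17 probes were dim on every array, at -6.96 and -6.45 on the array labelled Tlr3-deficient without tumor. Dnahc8, Tekt5 and Dnahc17 were set apart after their values were seen. The array that carries Y-linked transcripts gave the highest value of all 3, and whether the animals' sex had a part in this was not tested.

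With tumor in Tlr3-deficient mice, axoneme genes were higher by a median of 0.62 (1.54-fold) and IFT genes by 0.24 (1.18-fold), with all 17985 genes at 0. Of 27 axoneme genes 24 were above 0 (49.4% of all genes), and 20 lay above the IFT median. Here 3 of 43 members were at least 2-fold higher (4.54% of all genes were): Dnahc7b by 1.44 ± 0.23, Dnahc7a by 1.24 ± 0.22 and Rsph1 by 1.05 ± 0.21 (log2, scanner error). All 3 were under 2-fold with normexp, another background correction (0.90, 0.93 and 0.77), and Dnahc7a also with the mean of all its probes (0.78). Lower by 2-fold was 1 of 43 (3.88% of all genes), Dnahc17, by at least 3.45-fold, a call that was lost with the mean of all probes. At 0.5 log2, 16 of 27 axoneme genes (59.3%) and 0 of 13 IFT genes were higher, against 13.9% of all genes. This comparison rests on the array labelled Tlr3-deficient without tumor. Taking the mean of all probes of a gene brought the axoneme median to 0.36 against 0.23 for IFT genes.

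**Figure D2:**
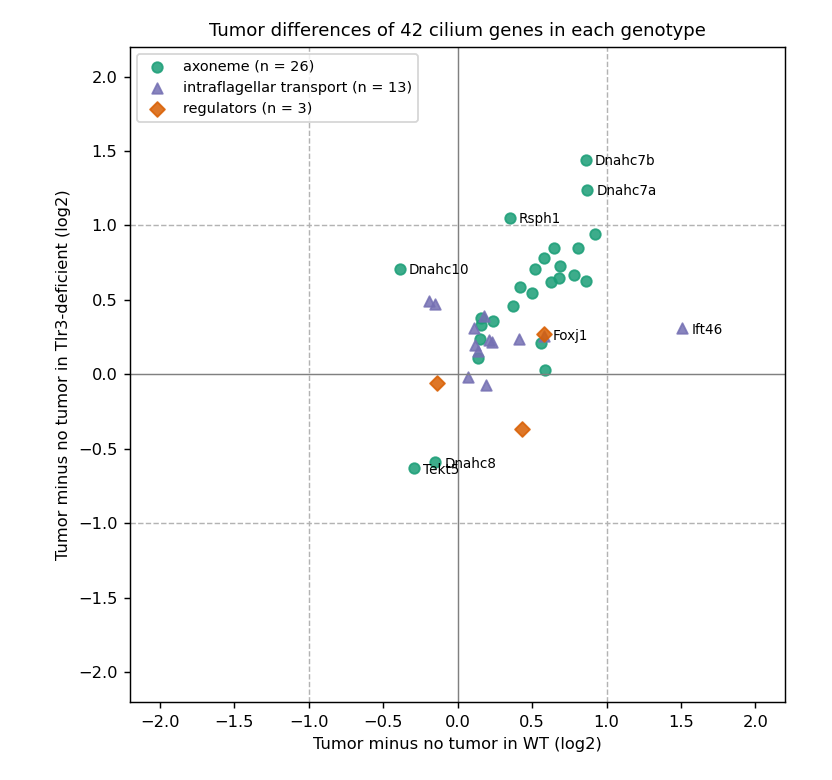
Tumor differences (log2) of the 42 genes measured on all arrays, in WT (horizontal axis) and in Tlr3-deficient mice (vertical axis); dashed lines mark 2-fold. Circles (axoneme) lie mostly in the upper right with a median of 0.54 in WT, triangles (IFT) lie nearer 0 except Ift46, and Dnahc8 and Tekt5 sit in the lower left.

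The tumor comparisons in WT and in Tlr3-deficient mice use different arrays. Above 0 in both were 23 of 26 axoneme genes (88.5%), 9 of 13 IFT genes (69.2%) and 27.7% of all genes. At least 0.5 higher in both were 13 of 26 axoneme genes, 0 of 13 IFT genes and 4.04% of all genes. For most axoneme genes the size was close in the 2 genotypes, as with Tekt1 (0.63 and 0.62), Rsph9 and Spag16, while Dnahc11 (0.56 and 0.21) and Rsph10b2 (0.59 and 0.03) had the larger value in WT. The other Rsph10b2 probe differed by 0.42 and 0.36, so its values were close in the 2 genotypes. The larger value was in Tlr3-deficient mice for Rsph1 (0.35 and 1.05), Dnahc7a (0.87 and 1.24) and Dnahc7b (0.86 and 1.44), and Dnahc10 had opposite signs (-0.39 and 0.71). For Dnahc7a this holds for the probe used. Its other probe measured on all arrays had the larger value in WT (0.52 and 0.16). With 1 array a group the difference between genotypes in the tumor effect was not tested.

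Without tumor, axoneme genes were lower in Tlr3-deficient than in WT mice by a median of -0.37 (1.29-fold) and IFT genes by -0.11 (1.08-fold), where the median of all 17467 genes was -0.04. Below 0 were 22 of 27 axoneme genes (54.7% of all genes), and 21 lay below the IFT median. At least 0.5 lower were 10 of 27 axoneme genes and 2 of 13 IFT genes (11.7% of all genes). At least 2-fold lower were 3 of 43 members (2.35% of all genes): Dnahc7b by -1.79 ± 0.23, Dnahc7a by -1.45 ± 0.22 and Dnahc10 by -1.14 ± 0.31, the last under 2-fold with normexp (-0.69) or when probes were averaged (-0.75). At least 2-fold higher were 3 of 43 (5.91% of all genes): Ift46 by 1.79 ± 0.20, Tekt5 by 1.01 ± 0.26, which was under 2-fold with quantile or median scaling, in the deposited value table and with normexp, and Dnahc17 as above, which was under 2-fold with normexp (0.54) and not called with the mean of all probes (0.00). With tumor, the comparison free of the array that goes against its label, the medians were -0.36 (1.28-fold) for axoneme genes and -0.17 (1.13-fold) for IFT genes, with -0.04 for all 18110 genes. Below 0 were 23 of 26 axoneme genes (56.0% of all genes), and 19 lay below the IFT median. At least 0.5 lower were 7 of 26 axoneme genes and 1 of 13 IFT genes (10.7% of all genes). At least 2-fold lower were 2 of 42 members (2.61% of all genes), Dnahc7b by -1.20 ± 0.21 and Dnahc7a by -1.09 ± 0.21, both just under 2-fold with normexp (-0.99 and -0.98), and 0 of 42 were higher (2.93% of all genes).

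**Figure D3:**
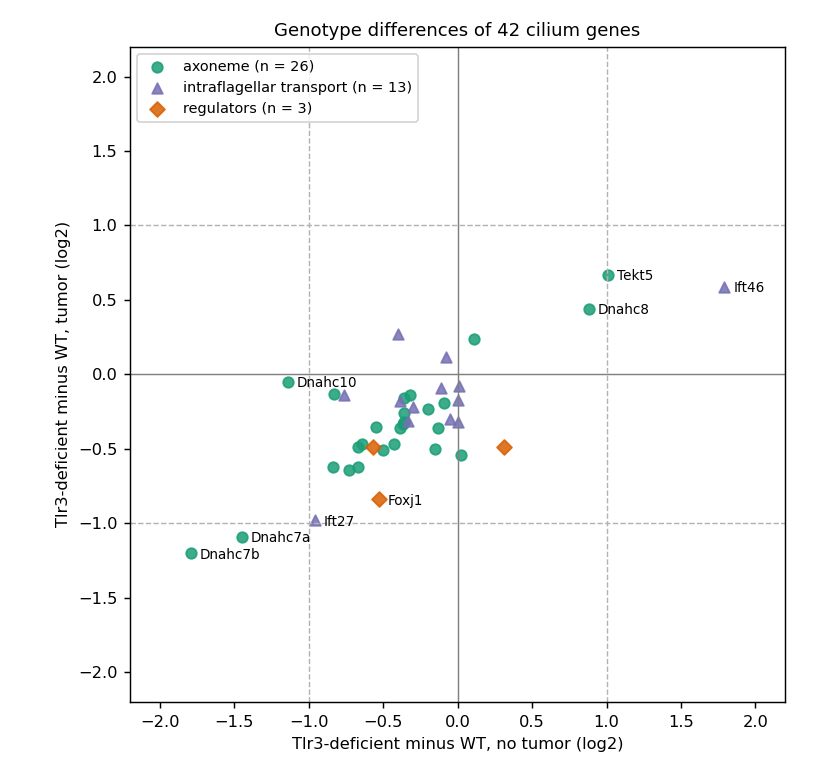
Genotype differences (log2, Tlr3-deficient minus WT) of the same 42 genes without tumor (horizontal axis) and with tumor (vertical axis); dashed lines mark 2-fold. Most points lie in the lower left; Dnahc7a and Dnahc7b lie beyond 2-fold on both axes, and Ift46, Tekt5 and Dnahc8 lie in the upper right.

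Below 0 in both genotype comparisons, which use different arrays, were 22 of 26 axoneme genes (84.6%), 8 of 13 IFT genes (61.5%) and 35.1% of all genes. Axoneme genes above 0 in both were Dnahc8, Tekt5 and Dnahc1.

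The gap between the class medians, axoneme minus IFT, was 0.36 with tumor in WT mice and 0.37 in Tlr3-deficient mice, and -0.25 and -0.19 between genotypes without and with tumor. Within the classes the SD over genes was 0.36 and 0.42 for tumor in WT, larger than or equal to the gap, so the classes overlap gene by gene. That IFT value includes Ift46 at 1.51. The SDs were 0.79 and 0.16 for tumor in Tlr3-deficient, where 7 of 27 axoneme genes lay below the IFT median. Between genotypes they were 0.84 and 0.65 without tumor and 0.40 and 0.36 with tumor. The sign of each gap was the same under all 11 other settings tried, with ranges of 0.20 to 0.43, 0.13 to 0.51, -0.30 to -0.16 and -0.29 to -0.11. In columns 52 to 85 of the slide alone, where replicate spots agreed best on the WT array without tumor, the medians for tumor in WT were 0.42 (axoneme) and 0.18 (IFT).

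Among the IFT genes, the IFT-A subunits, which serve the return path from tip to base, were Ift122 (1.22, 1.63, 1.21, 1.46), Ift140 (0.65, 0.46, 0.25, 0.74) and Ift43 (3.30, 3.49, 3.25, 3.18). On the probes used, none differed by 0.5 in any comparison. The IFT-B subunits carry cargo outward. Ift20, which also works at the Golgi, was flat at 4.45, 4.53, 4.46 and 4.45, and Ift80 (0.08, 0.22, -0.03, 0.13), Ift52 (1.16, 1.26, 1.08, 1.38) and Ift172 (3.66, 3.79, 3.36, 3.57) had narrow ranges. Ift74 (1.04, 1.25, 0.71, 0.94) and Ift81 (1.37, 1.56, 0.99, 1.38), which together bind tubulin, shared their highest and lowest arrays. Ift88, needed for both kinds of cilia, read -0.30, 0.28, -0.30 and -0.04, and Ift57 read 2.24, 2.08, 1.47 and 1.94.

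Ift27 and Ift46 had the widest ranges of the IFT genes. Ift27, a small GTPase that helps the BBSome leave the cilium, read 3.42, 3.66, 2.46 and 2.68. It followed genotype and not tumor: 0.96 and 0.98 lower in Tlr3-deficient mice without and with tumor, and 0.23 and 0.22 higher with tumor. Ift46, an IFT-B core subunit, read 2.04, 3.55, 3.83 and 4.14, low on the WT array without tumor and high on the other 3. Its 2-fold calls, 1.51 ± 0.20 with tumor in WT and 1.79 ± 0.20 between genotypes without tumor, belong to that probe alone. Its other probe read -2.56 and -2.64 on the WT arrays and was not well above background on either Tlr3-deficient array (-5.00 and -6.05). The probes thus disagree in the direction of the genotype difference, and no direction is given for the gene.

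Other cilium genes, from lists that hold none of the 47, give the context. Of 9 genes for dynein docking, rulers and the nexin link, 9 were above 0 in both tumor comparisons with medians of 0.64 in WT and 0.63 in Tlr3-deficient. Called higher were Iqca (current symbol Iqca1; 1.14 and 1.07) in both, Ccdc39, the ruler that spaces the inner arms, in WT (1.13, with 0.17 in Tlr3-deficient), and the nexin-link gene Tcte1 in Tlr3-deficient (1.22, with 0.64 in WT). Of 11 dynein assembly factors, which fold the arms in the cytoplasm, 10 were above 0 in each, with medians of 0.50 and 0.59, and Dyx1c1 (current symbol Dnaaf4; 0.79 and 1.01) was called in Tlr3-deficient. Other central apparatus genes had medians of 0.87 (7 genes) and 0.00 (6 genes), with 4930485B16Rik (Cfap54) at 2.01 and -0.20 and Ttc18 (Cfap70) at 1.33 and 0.64. Axonemal light chains and related genes (4 tested) had medians of 0.37 and 0.40 and none was called.

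Genes shared with primary cilia are given next. The 15 tested IFT motors and subunits under other names had medians of 0.32 and 0.24 with tumor and -0.15 and -0.15 between genotypes, with Ttc30a1 called in WT (1.13, with 0.13 in Tlr3-deficient). BBSome genes, which sort membrane cargo, had medians of 0.53 and 0.29 over 9 genes, with Bbs1 called higher in WT (1.41, with 0.20 in Tlr3-deficient). Transition zone and primary cilium genes had medians of 0.38 and 0.14 over 19 genes, with Tmem216 called in WT (2.07, with 0.69 in Tlr3-deficient).

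Markers of ciliated cells had medians of the same sign as the axoneme genes in all 4 comparisons. Of 36 on the array, 35 were well above background on every array and Cdhr3 on none. Their medians were 0.53 with tumor in WT, 0.50 with tumor in Tlr3-deficient, -0.44 between genotypes without tumor and -0.41 with tumor. Their summed signal, in multiples of the array's 75th percentile, was 208, 263, 181 and 199. With tumor, those at least 2-fold higher included Efhc2 by 1.63, Wdr63 by 1.12 and Meig1 by 1.04 in WT, and Stk33 by 1.06 and Tmem212 by 1.03 in Tlr3-deficient. Ccdc153 was lower in Tlr3-deficient mice by -1.43 without and -1.54 with tumor, and Efhc2 by -1.25 with tumor. Not all 35 moved alike: 3 were below 0 in each tumor comparison, and 7 and 2 above 0 between genotypes without and with tumor. Sec14l3, which adds most to the summed signal, differed by -0.13 and -0.38 with tumor and by 0.11 and -0.14 between genotypes. Tppp3 differed by 0.24 and -0.17, and by 0.20 and -0.20. Tubb4b differed by 0.37 and 0.18, and by 0.63 and 0.44. The part of ciliated cells in the differences of the 47 genes was not tested.

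The sorted cell type and its neighbours had their own marker lists. All 17 alveolar type II markers were well above background on every array, their medians were -0.12 and -0.03 with tumor and -0.30 and -0.16 between genotypes, and 0 of 17 were called in any comparison. Club cell markers, from the same airway epithelium as ciliated cells, had medians of -0.27 and 0.24 with tumor and -0.76 and -0.10 between genotypes, and summed to 1050, 823, 655 and 723. They did not move alike: with tumor Ltf differed by 3.01 and 3.28, Reg3g by 2.66 and 0.08, and Bpifa1 by -1.26 and 1.70. Between genotypes without tumor 4 of 10 were at least 2-fold lower (2.35% of all genes) and 1 higher (5.91%). Alveolar type I markers were lower with tumor, 11 of 11 below 0 in both genotypes with medians of -0.73 and -1.08. Between genotypes their medians were 0.89 and 0.34, and they summed to 345, 233, 495 and 298. Endothelial and fibroblast markers had medians of -0.45 and -0.52 with tumor and 0.61 and 0.29 between genotypes, and summed to 41.8, 33.3, 67.7 and 34.5. Both lists thus had medians opposite in sign to those of the axoneme genes in all 4 comparisons. Goblet, basal and neuroendocrine markers had medians of 0.96 and 0.12 with tumor and 0.18 and -0.59 between genotypes, and macrophage and leukocyte markers 0.51 and 1.40, and -0.53 and 0.52. Neutrophil markers had medians of 2.91 and 3.03 with tumor, with 6 and 4 of 11 genes entered at their lower bound. Of these 11, those well above background numbered 5, 11, 7 and 11, and the summed signal was 33.4, 137, 32.8 and 116. The part of these cells was not tested.

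**Figure D4:**
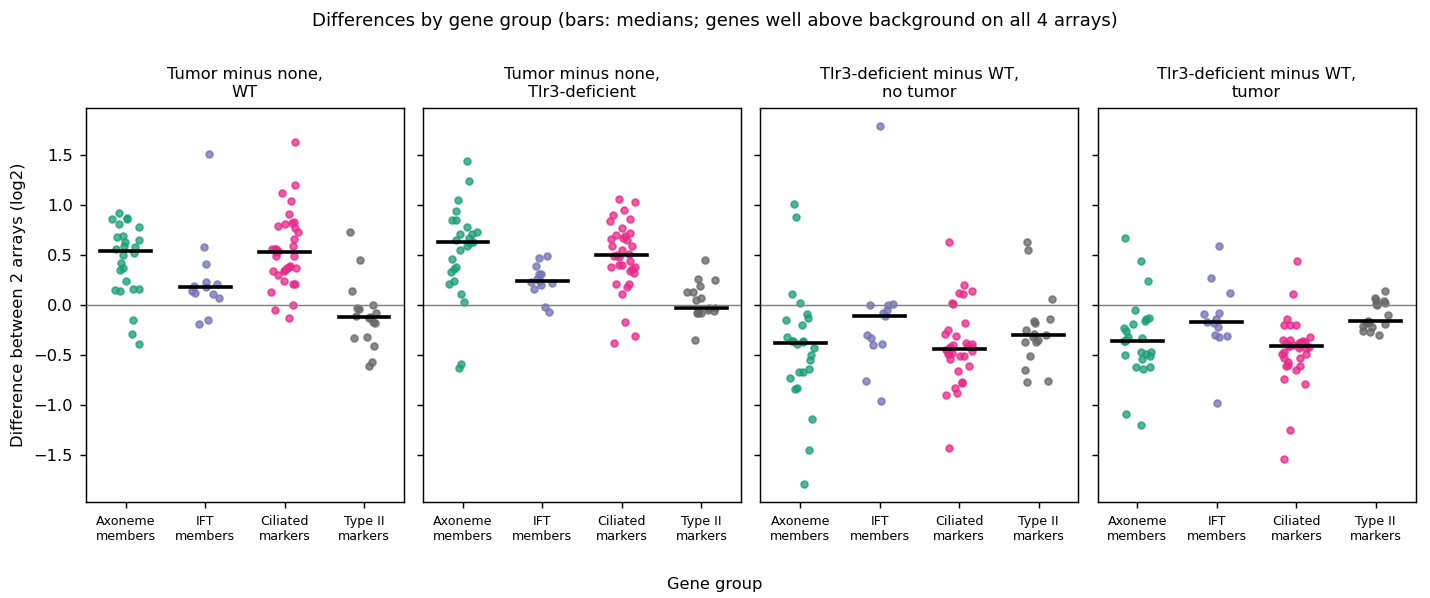
Differences (log2, vertical axis) of single genes in the 4 comparisons for axoneme members, IFT members, ciliated cell markers and alveolar type II markers measured on all arrays; bars are medians. Most axoneme genes and ciliated markers lie above 0 with tumor (medians 0.54 and 0.53 in WT) and below 0 between genotypes. Type II markers had medians of -0.12 and -0.03 with tumor and of -0.30 and -0.16 between genotypes, also below 0.

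The promoters of the 47 genes were read for the sites of the factors named above. RefSeq promoters (GRCm38.p6, 250 bases before to 50 after the start) were found for 39 of the 47 genes; Dnahc3, Foxj1, Ift122, Ift80, Ift81, Rsph1, Rsph10b2 and Rsph4a had no entry. The RFX half-site GTTGCC, searched on both strands, was in 16 of 39 (41.0%), against 14.1% of all 27025 genes in the table. It was in 9 of 27 axoneme promoters, 5 of 10 IFT promoters and both RFX promoters. The paired X-box (both half-sites facing each other across a short gap) was in 3 (7.69%), against 1.49%, and the forkhead core TGTTTAC in 2 (5.13%), against 4.05%; the paired X-box can overlap the half-site. Windows of 60 bases are shown for axoneme genes whose values were discussed above, for an IFT gene and for an RFX gene, chosen after their values were seen, with matches to the half-site or the paired X-box in capitals, on the strand of the gene: Spag16 chr1:69826836-69826895 (plus), Tekt1 chr11:72361883-72361942 (minus), Tekt4 chr17:25471407-25471466 (plus), Dnahc7a chr1:53706952-53707011 (minus), Dnahc7b chr1:46066663-46066722 (plus), Ift57 chr16:49699193-49699252 (plus) and Rfx2 chr17:56831092-56831151 (minus).
Spag16: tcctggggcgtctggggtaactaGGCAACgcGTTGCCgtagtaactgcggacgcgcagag
Tekt1: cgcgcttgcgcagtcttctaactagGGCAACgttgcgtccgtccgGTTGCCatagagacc
Tekt4: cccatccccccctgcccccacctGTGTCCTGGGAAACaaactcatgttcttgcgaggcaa
Dnahc7a: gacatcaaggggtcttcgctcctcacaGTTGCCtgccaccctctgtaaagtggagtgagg
Dnahc7b: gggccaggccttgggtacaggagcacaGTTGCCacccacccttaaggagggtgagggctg
Ift57: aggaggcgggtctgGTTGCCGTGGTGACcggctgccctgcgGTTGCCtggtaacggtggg
Rfx2: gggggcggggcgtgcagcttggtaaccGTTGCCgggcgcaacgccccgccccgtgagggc
Spag16 and Tekt1 hold the half-site once on each strand, and Dnahc7a and Dnahc7b hold it at different distances from their starts. Axoneme genes with the half-site (8 tested) had median tumor differences of 0.79 in WT and 0.85 in Tlr3-deficient, against 0.33 and 0.36 for those without it (14 and 15 tested). IFT genes did not divide that way, with 0.12 and 0.26 for the 5 with it and 0.19 and 0.23 for the 5 without. Between genotypes the axoneme medians were -0.44 with and -0.32 without the half-site in mice without tumor, and -0.35 and -0.41 in mice with tumor. The axoneme genes with the half-site include both Dnahc7a and Dnahc7b. Those without it include Dnahc8 and Tekt5, which were below 0 in both tumor comparisons. This split was not planned, and whether the half-site has a part in the differences was not tested. A match of letters is a description and not a binding site.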

How the data were processed

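One-colour (Cy3) Agilent arrays of design 014868, 1 per group, were read by Agilent Feature Extraction (version 10.7.3.1 per the headers). The deposited values are processed intensity on a linear scale, from which that program had already removed background and spatial trend, per the file headers. The series value table that the authors deposited holds log2 values of the same arrays; set against log2 processed signal it correlated at r = 0.999 or above. Its making is not stated in the labels, and it served as an alternative.

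Outlier spots and controls were left out, spots of a probe averaged, the array's 75th percentile subtracted on the log2 scale, and each gene represented by its brightest probe over the 4 arrays. A gene was tested where well above background on at least 1 of 2 arrays and called at 2-fold. Where it was dim on 1 array the fold is a lower bound ("at least"), with the dim array set to its lowest signal well above background, or to the dim probe's value where that is higher. No p-value was computed.

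The rule for genes named first was Foxj1, Rfx2, Rfx3 and each member 2-fold apart in any comparison; all other members are given by role, and from each list at most the 4 largest 2-fold differences. Members and lists were chosen with earlier results of these data known. Alternatives were normexp (offset 50; limma 3.58.1, R 4.3.3), quantile and median scaling, the value table, the mean of all probes, other filters on dim probes, 2 other readings of the member rule and slide columns 52 to 85. Every probe as a unit and the 0.5 log2 step were added after seeing the data. The split of differences by the promoter half-site was not planned. Python 3.11.15, numpy 2.4.6 and pandas 2.3.3 were used. Coordinates of probes are mm9, of promoters GRCm38.p6, and the builds were not mixed. The values of 1 ciliated cell marker are not reported here.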

Additional observations from a re-analysis of the deposited data

Results flagged for a closer look

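Dnahc10, an inner arm dynein heavy chain, differed with tumor in opposite directions in the 2 genotypes: -0.39 in WT and 0.71 in Tlr3-deficient mice, 1.10 apart. It was dim, at levels of -3.44, -3.83, -4.59 and -3.88, with scanner errors of 0.25 and 0.32 on the 2 differences. With normexp the differences were -0.46 and 0.09, and with the mean of all probes 0.12 and 0.22, in the same direction. The difference between genotypes was not tested, and it rests on the array labelled Tlr3-deficient without tumor.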

How the results depend on the processing

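The number of members 2-fold apart moved most. For tumor in WT (1) it was 3 with normexp, 2 with the mean of all probes, 2 with no filter on dim probes, 3 with current symbols and 0 in columns 52 to 85. For tumor in Tlr3-deficient (4) it was 1 with normexp, 2 with the mean of all probes, 1 with a digit required after every prefix, which drops the Dnahc genes, and 2 in columns 52 to 85. Between genotypes without tumor (6) it was 3, 2 and 2 under the last 3 of these, and with tumor (2) it was 0 with normexp, 0 with the digit rule and 1 in those columns. In columns 52 to 85 alone, 24 of 30 members were well above background on all arrays. The gap between class medians for tumor in Tlr3-deficient (0.37) was 0.13 with the mean of all probes, 0.51 in columns 52 to 85 and, added after seeing the data, 0.16 with every probe as a unit; the other gaps kept their sign and were smallest at 0.20 for tumor in WT (mean of all probes), -0.16 between genotypes without tumor (every probe) and -0.11 with tumor (columns 52 to 85). Ift46 between genotypes without tumor turned to -0.33 with the mean of all probes. Centring on the median moved the median of all genes to -0.15 for tumor in WT and -0.14 between genotypes without tumor. The offset in normexp shrinks differences of dim genes by construction; for other shifts the cause was not tested. No replicate could be left out with 1 array a group. No paired analysis was possible because each group is 1 array and the labels carry no replicate numbers. Signal over background limits Dnahc17, Dnahc10, Dnahc1 and Tekt5.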

Other observations

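Some genes carry an older name in the array files and a current symbol that the member rule would take in. Rtdr1 (current symbol Rsph14, a radial spoke gene) read -1.76, 0.03, -2.09 and -0.51, and was 1.79 higher with tumor in WT and 1.58 higher in Tlr3-deficient, past 2-fold in both. Rabl5 (current symbol Ift22, an IFT-B GTPase) read -0.94, -0.65, -1.04 and -0.82 and differed by 0.29 and 0.21. BC061194 (current symbol Spag6) was well above background on the WT array without tumor alone, at -2.38, and was at least 7.64-fold lower on the WT tumor array. These genes were singled out after their values were seen.

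A list of further regulators had 10 genes on the array: Ccdc78, Ccno, Ccdc67 (Deup1), Foxn4, Myb, Trp73, Ulk4 and the RFX family genes Rfx1, Rfx4 and Rfx5. Their medians were 0.26 with tumor in WT (9 tested) and 0.43 in Tlr3-deficient (10 tested), and -0.34 and -0.37 between genotypes. Rfx4 was higher on the Tlr3-deficient tumor array than on the array labelled Tlr3-deficient without tumor, by at least 2.32-fold, and than on the WT tumor array, by 1.27 log2. Foxn4 was well above background on the array labelled Tlr3-deficient without tumor alone, at least 2.24-fold lower with tumor and at least 2.0-fold higher than in WT without tumor. Ccno differed by -0.62 and -0.92 with tumor.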
